A study of Mus musculus with 2 samples.

Results

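The myosin light chain genes Myl1, Mylpf, Myl2, Myl3 and Myl4 and the light chain kinase genes Mylk2 and Mylk4 were followed across single myofibers of the mouse flexor digitorum brevis (FDB), which flexes the toes and is built mostly of fast fibres. These 7 genes were chosen by name from the 35163 genes of the count table. They were read in the 171 of 763 cells that had more than 5000 genes detected and less than 20% of their counts from mitochondrial genes. The muscle is taken here as that of 1 untreated C57BL/6J mouse more than 3 months of age. There was thus 1 genotype, 1 condition and no control group. The study's methods name C57BL/6J and DBA2 male mice for the work as a whole, and the labels of both samples here give C57BL/6J. The methods give no number of animals for the sorted myofibers, and no cell carries an animal label. Whole myofibers from a large particle sorter, together with a smaller set of myofiber fragments, were prepared with mcSCRB-seq, in which RNA molecules are tagged with unique molecular identifiers (UMIs) before amplification, and the 2 deposited samples are sequencing lanes. Of the 171 cells, 168 were whole myofibers and 3 were fragments. Each cell was placed in a fibre class by the largest count among the heavy chain genes Myh1 (fast 2X), Myh2 (fast 2A), Myh4 (fast 2B), Myh7 (slow) and Myh8, which gave 117 fast 2X, 51 fast 2A, 1 fast 2B and 2 slow cells. None had Myh8 as the largest. The light chain and kinase counts took no part in this choice.

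A myosin molecule pairs a heavy chain motor with light chains that wrap around the lever arm of each head, one essential and one regulatory. Fast fibres use Myl1 as the essential and Mylpf as the regulatory chain, whereas slow fibres, like the ventricle of the heart, use Myl3 and Myl2 in the same positions. Myl4 is the essential chain of embryonic muscle and the atrium. Calcium-bound calmodulin activates the skeletal muscle light chain kinase Mylk2, which phosphorylates the regulatory chain and potentiates the force of a fast twitch. Mylk4 is a related kinase of the same family.

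In GRCm38, Myl1 lies at chr1:66924295-66945404 on the minus strand, Mylpf at chr7:127208890-127214298 on the plus strand, Myl2 at chr5:122100951-122113472 (plus), Myl3 at chr9:110741861-110769798 (plus) and Myl4 at chr11:104550663-104595753 (plus). The kinases lie at chr2:152911352-152923068 (Mylk2, plus) and chr13:32700834-32783954 (Mylk4, minus). The 5 light chain genes are thus on 5 different chromosomes, and none of the 7 genes neighbours another.

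The first coding bases of each fast and slow pair are shown to describe how the paired genes differ. Every comparison of slow with fast chains below depends on the reads of these pairs being told apart. The counted reads come from transcript ends, so the coding starts alone do not decide this. The stretches of 66 bases described below were taken over whole transcripts. The sequences are from the GENCODE transcripts of GRCm38. They run 5′ to 3′ from the start codon for 120 bases, and capitals mark the bases that differ from the paired gene or have no partner in it. The regulatory pair differs at fewer of these bases:
Mylpf: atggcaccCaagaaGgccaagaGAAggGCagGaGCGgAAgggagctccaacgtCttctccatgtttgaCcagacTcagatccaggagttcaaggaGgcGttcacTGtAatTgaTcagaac
Myl2: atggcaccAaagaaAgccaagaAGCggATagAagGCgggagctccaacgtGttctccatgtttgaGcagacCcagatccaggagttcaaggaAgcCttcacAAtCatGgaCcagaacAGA
The essential pair differs at more of them:
Myl1: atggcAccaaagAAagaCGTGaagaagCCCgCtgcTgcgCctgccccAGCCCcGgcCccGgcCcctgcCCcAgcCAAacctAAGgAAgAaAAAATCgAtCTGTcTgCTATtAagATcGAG
Myl3: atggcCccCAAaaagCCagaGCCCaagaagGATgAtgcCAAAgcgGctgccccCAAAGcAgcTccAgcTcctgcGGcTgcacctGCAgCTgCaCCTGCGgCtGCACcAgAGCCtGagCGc
In these starts 23 of 120 bases are marked in each regulatory gene and 56 of 120 in each essential gene. Over the whole aligned coding sequence the regulatory pair Mylpf and Myl2 shared 70.3% of bases, the essential chains Myl1 and Myl3 shared 71.6%, Myl1 and Myl4 70.6%, and Myl3 and Myl4 77.0%. A regulatory and an essential chain shared 53.8 to 57.1%. No stretch of 66 bases of Mylpf, Myl4 or Mylk2 recurred in another annotated gene, and 0.0951% of those of Myl2 did. For Myl3 the value was 1.67%, all of it with Pth1r, a gene on the opposite strand whose span overlaps that of Myl3. Myl2 likewise overlaps Ccdc63, Myl4 overlaps Gm11665, Gm22000, Gm11661 and Gm11663, and Mylk4 overlaps the small nuclear RNA gene Gm27342, all on the opposite strand. The methods give default settings of the counting tool without saying whether strand was used, so reads of such partners may not have been separated.

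Myl1 was the exception. Of its 66-base stretches, 9.39% (194 of 2067) also occur in Mylf-ps, a pseudogene by its name. No other gene held a further stretch of Myl1. Reads from the shared stretches could be given to either gene. Over the 171 cells Mylf-ps held 53167 counts (13.2% of the number for Myl1) and Gm18795, another gene, held 319805 (79.4%). Both followed Myl1 from cell to cell, with Spearman's rho of 0.90 for Gm18795 and 0.88 for Mylf-ps. The level of Myl1 is therefore uncertain by the reads that Mylf-ps may have taken. Whether Gm18795 took reads of Myl1 was not tested. Adding the Mylf-ps counts to Myl1 left its ratio between classes at -0.51 on the log2 scale. The Gm18795 counts were not added.

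A promoter from each pair is shown, since the fast and the slow chains differed in opposite directions between the classes described below. The windows are from the RefSeq promoter table (GRCm38.p6), which held entries for 6 of the 7 genes, and end before the annotated start site. Capitals mark CANNTG, the E-box letters bound by myogenic basic helix-loop-helix factors.
Mylpf, chr7:127211358-127211607, plus strand, 250 bases: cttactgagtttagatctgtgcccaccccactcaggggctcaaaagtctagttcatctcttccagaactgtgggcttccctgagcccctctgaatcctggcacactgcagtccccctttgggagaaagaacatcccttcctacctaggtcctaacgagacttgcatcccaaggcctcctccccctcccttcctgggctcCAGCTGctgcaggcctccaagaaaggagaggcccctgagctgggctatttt
Myl3, chr9:110763428-110763645, plus strand, 218 bases: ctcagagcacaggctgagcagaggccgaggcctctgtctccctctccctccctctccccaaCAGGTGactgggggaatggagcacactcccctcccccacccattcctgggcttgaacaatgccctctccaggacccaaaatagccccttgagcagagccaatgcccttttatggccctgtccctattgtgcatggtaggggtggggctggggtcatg
Both windows lie inside the annotated span of their gene and touch no exon. Each held 1 CANNTG, letters that occurred in 66.2% of all 32851 promoter windows of 250 bases and in 61.9% of their first 218 bases. The Myl3 window also held 1 CArG box, the motif of serum response factor, which occurred in 1.29% of first 218 bases. Neither held a MEF2 motif, which 0.508% of 250-base windows did. CANNTG, the CArG box and the MEF2 motif read the same on both strands. A match to letters is a description of the window and not a bound site.

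The 171 cells had between 28827 and 1542996 counts, with a median of 239581. The fast 2X cells had a median of 255726 counts and summed to 39180010. The fast 2A cells had a median of 206510 and summed to 11907400. Cells carried 8 library indexes, each on 1 lane only, with 88 kept cells on lane 1 and 83 on lane 2. The cell descriptions give an index and not a plate, and the cells of 1 index are called a plate below. No full cell barcode was shared between the lanes, while the 96 well codes within the barcodes were used again on each lane. Markers that took no part in the classes separated with them. The fast 2X markers Actn3, Pvalb and Mybpc2 (3 of 3) were at least 2-fold lower in fast 2A than in fast 2X cells, and the slow markers Tnnt1, Tnni1, Tnnc1, Atp2a2 and Myoz2 (5 of 5) were at least 2-fold higher. No cell carries an animal label, and cells are not replicates of a condition, so no test was run. Values are counts per 1000000 counts (CPM) of a cell or of the summed counts of a class, and the 95% limits beside them cover counting error only.

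The plates stood apart in the slow chains, which bears on every value of Myl2 and Myl3 given below. Summed over the fast 2X cells of a plate, Myl2 ranged from 7.26 CPM on the plate indexed n710 to 315 CPM on n705, a 43.4-fold span. Myl3 ranged from 7.45 CPM on n710 to 125 CPM on n711. The fast chains in the same cells spanned 1.38-fold for Myl1 and 1.69-fold for Mylpf. Plates with much Myl2 in the fast 2X cells also had much of it in the fast 2A cells (Spearman's rho of 0.81 over 8 plates, and 0.71 for Myl3), where Myl2 ran from 17.9 CPM on n710 to 1571 CPM on n711. The part of the plates in the level of Myl2 and Myl3 in fast 2X cells was not tested.

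**Figure D1:**
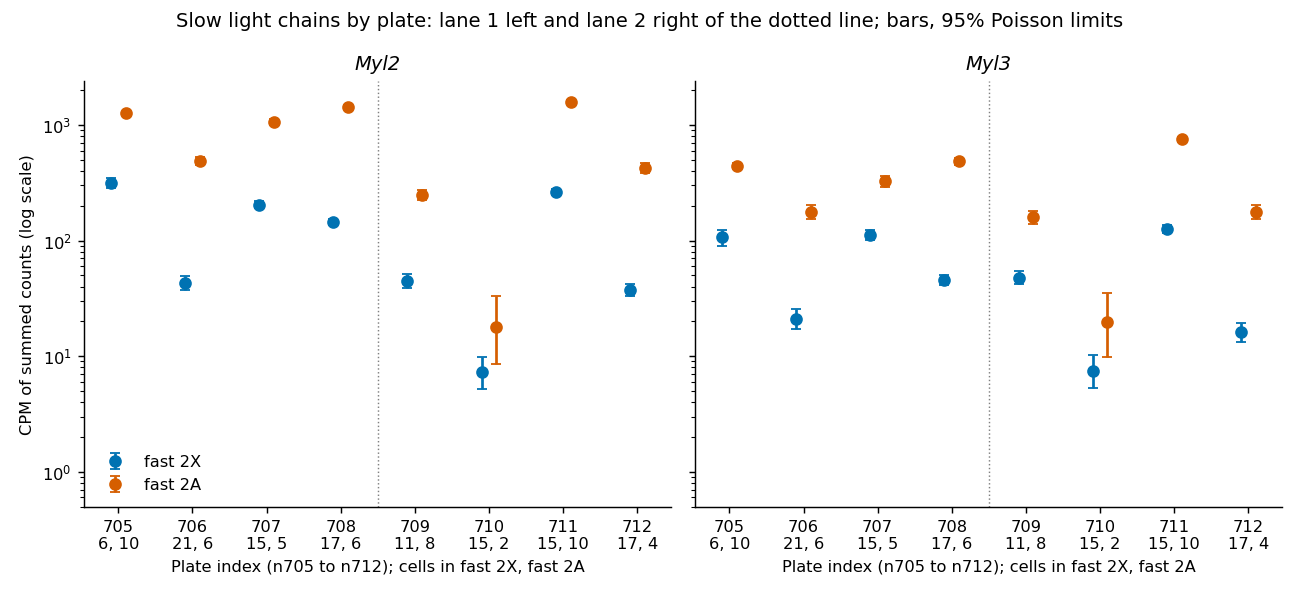
Summed CPM (log axis) of Myl2 and Myl3 in the fast 2X (blue) and fast 2A (orange) cells of each plate, with exact 95% Poisson limits and the number of cells under each plate index. Fast 2A lies above fast 2X on all 8 plates for both genes, while the level of both classes shifts from plate to plate and is lowest on n710.

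For 6 of the 7 genes the direction between the classes was the same on every plate. Myl2 was higher in fast 2A than in fast 2X cells on 8 of 8 plates, by 1.30 to 3.51 on the log2 scale, and so was Myl3, by 1.40 to 3.45. Mylk4 was lower in fast 2A cells on 8 of 8 plates, by -1.89 to -0.80, as was Mylk2, by -1.44 to -0.56, Myl1, by -0.85 to -0.23, and Mylpf, by -0.57 to -0.12. Only Myl4 split, with 4 plates each way. Plate n710 gave the smallest difference for Myl1, Myl2, Myl3 and Mylk4 and the largest for Mylk2, and it held only 2 fast 2A cells.

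The counts of Myl1, Mylpf, Myl2, Myl3 and Myl4 together made up 2.12% of all counts in the 171 cells. Per kilobase of transcript, the level over all kept cells fell in the order Mylpf (16816 CPM per kb), Myl1 (7173), Myl2 (526), Myl3 (164), Mylk4 (56.8), Mylk2 (27.6) and Myl4 (19.2). The order differed by class. In fast 2X cells Mylk4 (67.2 CPM per kb) was above Myl3 (54.3). In fast 2A cells Myl2 (1466) and Myl3 (405) were nearer to Myl1 (5464), and in the slow cells Myl2 (5595) was above Myl1 (4512). Per kilobase, the regulatory chain exceeded the essential one in each of these classes, for the fast and for the slow chains. Without division by length, Mylpf (4724 CPM) was not above Myl1 (4882 CPM) in the slow cells. mcSCRB-seq counts transcript ends rather than whole transcripts, so a level per kilobase may understate long genes such as Mylk4. Its reference transcript has 5571 bases against 766 for Mylpf. Division by length likewise raises Mylpf relative to Myl1, whose reference transcript has 1082 bases.

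The fast chains Myl1 and Mylpf were present in all 171 cells. In fast 2X cells Myl1 ranged from 931 to 16599 CPM with a median of 7932, and in fast 2A cells from 1588 to 8711 CPM with a median of 5926. The ranges overlapped, with 46 of 51 fast 2A cells below the fast 2X median. In summed counts Myl1 was 5912 CPM (limits 5868 to 5956) in the fast 2A class. In the fast 2X class it was 8400 CPM (limits 8372 to 8429), which set the log2 ratio at -0.51 (limits -0.52 to -0.50). Mylpf, the regulatory partner, differed less. It ranged from 1853 to 28304 CPM (median 13246) in fast 2X cells and from 4579 to 18127 CPM (median 10636) in fast 2A cells. Its log2 ratio was -0.30 (limits -0.31 to -0.29), and 40 of 51 fast 2A cells were below the fast 2X median. Both slow cells were below the fast 2A medians, at 3677 and 5136 CPM of Myl1 and at 4074 and 4860 CPM of Mylpf. Of these values only the 4074 CPM of Mylpf lay below the fast 2A range. Cells led by Myh7 thus still carried most of their light chain counts as fast chains. Myl1 and Mylpf varied together over cells (rho of 0.83 over 171 cells, 0.81 within fast 2X and 0.72 within fast 2A). Apart from Myl1 and Mylf-ps, the gene closest to Mylpf was Tnni2, the fast troponin I (rho 0.78). All these correlations are between CPM of the same cells, which share library and depth, and are descriptions.

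The slow chains ran the other way. Myl2 ranged from 0 to 441 CPM in fast 2X cells with a median of 78.2, and from 0 to 4740 CPM in fast 2A cells with a median of 343. The groups overlapped, yet 41 of 51 fast 2A cells were above the fast 2X median and 21 exceeded the highest fast 2X cell. In summed counts Myl2 reached 971 CPM (limits 953 to 989) in fast 2A cells. Fast 2X cells held 109 CPM (limits 106 to 113), so that fast 2A was 8.87-fold higher, or 3.15 (limits 3.10 to 3.20) on the log2 scale. This ratio ranked 2 of the 8649 genes with at least 500 counts in the fast 2A and fast 2X cells together. Its essential partner Myl3 ranged from 0 to 347 CPM (median 39.7) in fast 2X and from 10.0 to 2258 CPM (median 119) in fast 2A cells. Again 41 of 51 fast 2A cells lay above the fast 2X median, and 13 lay above the highest fast 2X cell. The summed levels were 379 CPM (limits 368 to 390) and 50.9 CPM (limits 48.7 to 53.2), a log2 ratio of 2.90 (limits 2.82 to 2.97), which ranked 4 of 8649. The slow cells held 3021 and 3847 CPM of Myl2, below the highest fast 2A cells, and 2375 and 2320 CPM of Myl3, above all others. Few fast cells lacked the slow chains altogether: a Myl2 UMI was found in 113 of 117 fast 2X cells and 50 of 51 fast 2A cells, and a Myl3 UMI in 108 of 117 and 51 of 51. With every cell thinned to 28827 counts, a Myl2 UMI was still found in 76.1 to 82.1% of fast 2X cells over 10 draws. No cell type that should lack Myl2 was in the data to set a background for these shares. The 4 fast 2X cells without a Myl2 UMI were on plates n710 and n712. The paper proposes that some ambient RNA was present in its cells. The 91 cells left out with too few heavy chain counts for a class had a median of 1289 counts. Summed, they held 203 CPM of Myl2 (26 counts, limits 132 to 297) and 172 CPM of Myl3 (22 counts, limits 108 to 260). They also held 4063 CPM of Myl1 and 6675 CPM of Mylpf. The part of ambient RNA in the slow chains of fast 2X cells, or in the fast chains of slow cells, was not tested.

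The size of the Myl2 and Myl3 difference rested on a minority of fast 2A cells with much slow chain. When medians over cells replaced summed counts, the log2 ratio was 2.13 for Myl2 and 1.58 for Myl3. Without the cells in which Myh7 made up at least 5% of the heavy chain counts, it was 1.70 for Myl2 and 1.21 for Myl3, over 40 fast 2A and 115 fast 2X cells. The direction held under each of these.

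Among all 8649 genes, 0.775% were at least 2-fold higher and 1.73% at least 2-fold lower in fast 2A than in fast 2X cells, and the median log2 ratio was -0.09 (quartiles -0.29 and 0.10). That is 67 genes higher and 150 lower, and with TMM scaling between the classes it was 93 and 100. Of the 7 genes described here, 2 were at least 2-fold higher (Myl2 and Myl3) and 1 at least 2-fold lower (Mylk4). Mylk2 was just short of 2-fold. No test was made of the 7 genes as a group.

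**Figure D2:**
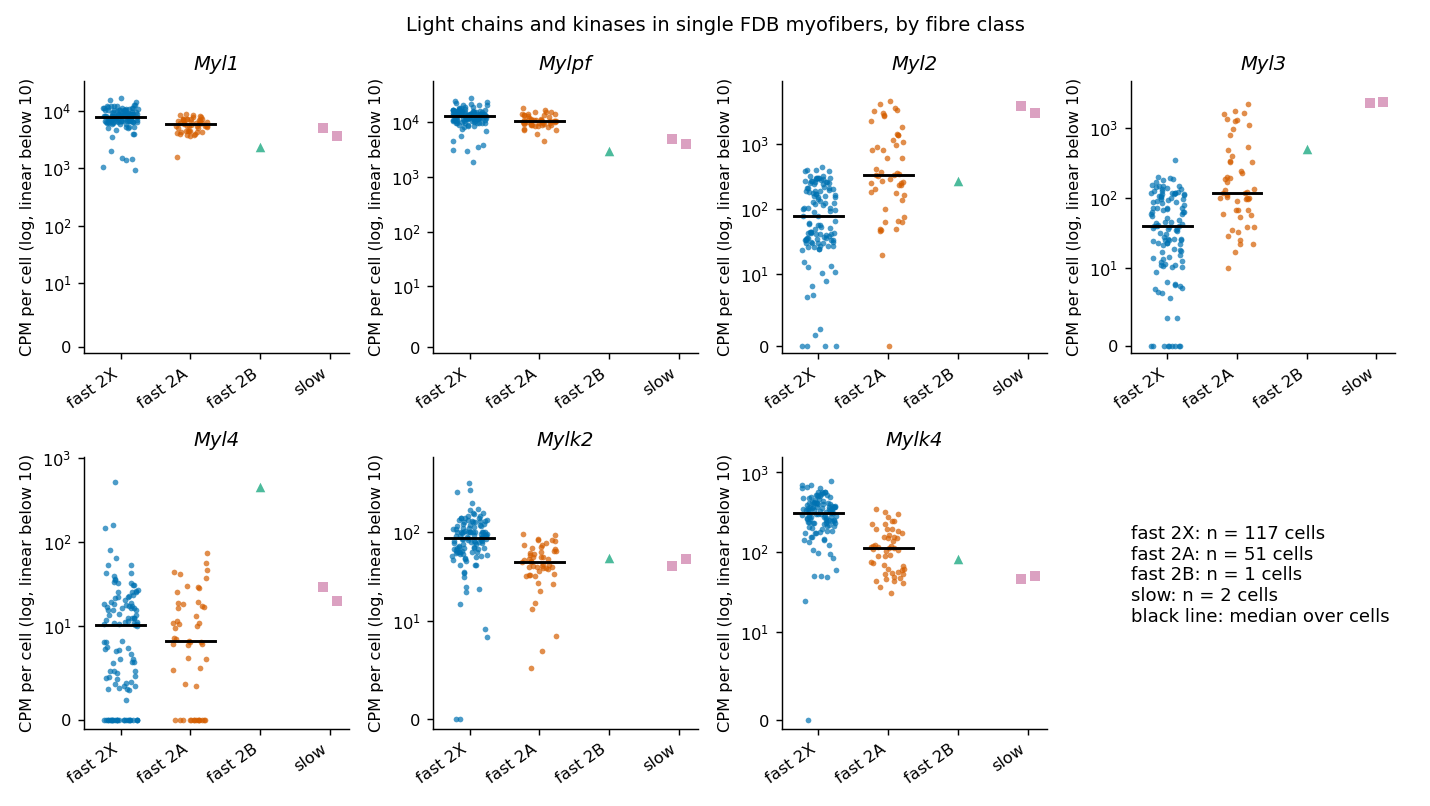
CPM per cell (symmetric log axis, linear below 10) of the 7 genes by fibre class, with 1 point per cell and a black line at the median of each class of more than 2 cells. Myl2 and Myl3 have their lowest medians in fast 2X (78.2 and 39.7 CPM) and lie high in the slow cells and in some fast 2A cells, Mylk4 and Mylk2 have the higher median in fast 2X, and Myl4 is low except in a few cells.

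To place both pairs on one scale, the slow light chain share of each cell was taken as the counts of Myl2 and Myl3 divided by those of Myl1, Mylpf, Myl2 and Myl3. In fast 2X cells the median was 0.576% (95% limits of the median over cells 0.353 to 0.977, range 0 to 9.95%). In fast 2A cells it was 3.14% (limits 1.88 to 6.41), with quartiles of 1.13 and 9.54% and a highest value of 29.6%. The slow cells stood at 41.0 and 38.2% and the fast 2B cell at 12.6%. No cell reached 50%, the slow cells included. The fast 2A class was the most spread. In 13 of its 51 cells the share was below 1%, as in most fast 2X cells, and in 13 it was at or above 10%. Altogether 16 of 171 cells reached 10%, namely 13 fast 2A, both slow and the fast 2B cell, but none of the 117 fast 2X cells. The exact upper limit for that count is 3.10%, which takes cells as independent although the plates stood apart. The nearest fast 2X cell stood at 9.95%. It was on plate n707, had the lowest CPM of both Myl1 (931) and Mylpf (1853) among all kept cells, and held 158 CPM of Myl2 and 150 of Myl3, so that its share was high over little fast chain. Summed over cells, the share was 7.36% in fast 2A and 0.723% in fast 2X cells. Thinning each cell to 28827 counts gave medians of 2.75 to 3.55% and 0.543 to 0.675%. In each thinned draw 0 or 1 fast 2X cell was at or above 10%.

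The slow light chain share varied with the slow heavy chain and was the larger of the 2 in most cells. Over the 171 cells it had a Spearman's rho of 0.83 with the Myh7 share of the 5 heavy chain genes (0.74 within fast 2X, 0.85 within fast 2A), and its rho with the Myh2 share of Myh1 and Myh2 counts was 0.56. In 47 cells with a Myh7 share under 0.1% the median slow light chain share was 0.24%. It was 0.977% in 71 cells between 0.1 and 1%, 1.98% in 38 cells between 1 and 5%, 11.1% in 7 cells between 5 and 10% and 25.4% in 6 cells between 10 and 50%. The order of these medians followed the Myh7 share, though the ranges of neighbouring bins overlapped. In fast 2X cells both shares also differed by plate. Their Myh7 share was at most 0.315% on plate n706 and at least 0.691% on n707. Their median slow light chain share ran from 0.0547% on n710 to 1.71% on n711. The part of the plates in these rho values and bins was not tested. In 142 of 171 cells the slow light chain share was above the Myh7 share, in 95 of 117 fast 2X and 46 of 51 fast 2A cells, whereas in both slow cells it was below (41.0 and 38.2% against Myh7 shares of 77.3 and 76.1%). The widest gap in a cell of low Myh7 was in a fast 2A cell on plate n705, with 21.0% slow light chains and 1.55% Myh7. Its Myh2 share was 85.6%, and it held 2729 CPM of Myl2 and 1110 CPM of Myl3. At the other end, the fast 2A cell with the highest slow light chain share (29.6%, plate n711) had nearly equal Myh7 and Myh2 shares of 43.2 and 45.3%.

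**Figure D3:**
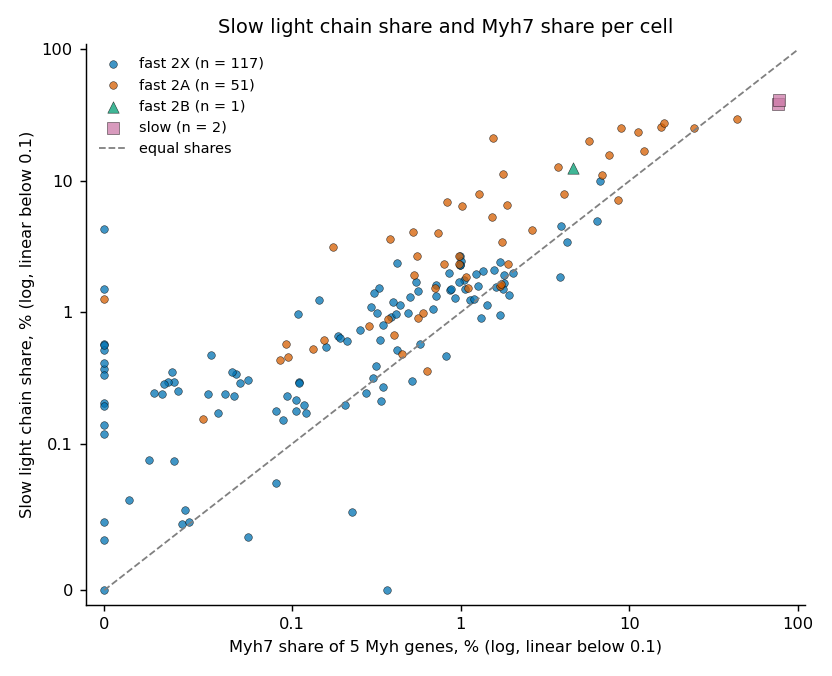
Slow light chain share against the Myh7 share of the 5 heavy chain genes per cell (both in percent on symmetric log axes, linear below 0.1), with fibre classes by colour and a dashed line of equal shares. Of 171 cells 142 lie above the line, and the 2 slow cells lie below it.

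The slow shares of both positions on the myosin head varied together. The regulatory slow share, Myl2 of Myl2 and Mylpf, had a median of 0.601% in fast 2X and 3.04% in fast 2A cells. The essential slow share, Myl3 of Myl3 and Myl1, had medians of 0.529 and 2.39%. Over the 171 cells the 2 shares had a rho of 0.85 (0.75 within fast 2X and 0.91 within fast 2A), and Myl2 and Myl3 CPM had a rho of 0.86. The part of the plates in these rho values was not tested. Above a slow share of 10% most cells had more of the regulatory than of the essential chain in the slow form. The fast 2A cell most apart, on plate n707, had 15.9% against 3.11%. The exceptions were the fast 2B cell, with 8.26 against 17.6%, and a fast 2A cell on plate n709, with 18.9 against 21.6%. The slow cells had 42.6 and 44.2% regulatory against 39.2 and 31.1% essential slow shares. The total of both regulatory chains per kilobase was a median of 2.40 times that of both essential chains, ranging from 1.46 to 5.09 over cells, with medians of 2.26 in fast 2X, 2.70 in fast 2A and 1.67 in the slow cells. Division by length raises this ratio, because the reference transcripts of Mylpf and Myl2 are shorter than those of Myl1 and Myl3. In plain counts its median was 1.70 over the 171 cells, ranging from 1.03 to 3.61. Reads of Myl1 given to Mylf-ps or Gm18795 would raise the ratio in either form.

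**Figure D4:**
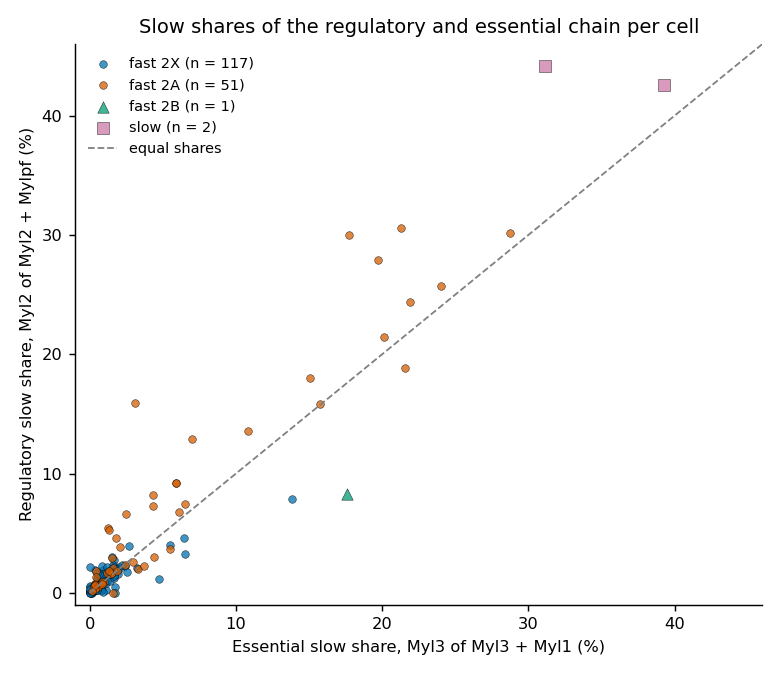
Regulatory slow share (Myl2 of Myl2 and Mylpf) against essential slow share (Myl3 of Myl3 and Myl1) per cell, in percent, with a dashed line of equal shares. Fast 2A cells spread along the line up to about the position of 30.1 and 28.8%, below the 2 slow cells, while the fast 2B cell lies to its right at 8.26 and 17.6%.

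By likeness over the 171 cells among 8746 genes with at least 500 counts (the class heavy chains left out), the closest genes to Myl2 were Myl3 (rho 0.86), Tnnt1 (0.79) and Tnnc1 (0.75). The closest to Myl3 were Myl2, Tnnt1 (0.77) and Tnnc1 (0.74). Tnnt1 and Tnnc1 are the slow troponin T and the slow and cardiac troponin C. Because Myl2 and Myl3 are also ventricular genes, markers of heart muscle were read beside them. Of 6 such genes, Myl7 had no counts, Nppb had 1 and Nppa had 9 in all kept cells. Tnnt2 differed by 0.29 and Myh6 by 3.13 on the log2 scale between fast 2A and fast 2X cells, the latter at 108 against 12.4 CPM, and these were the only ones with 500 counts.

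Myl4, the embryonic and atrial essential chain, was rare. In fast 2X cells it ranged from 0 to 520 CPM with a median of 10.4, and in fast 2A cells from 0 to 73.9 CPM with a median of 8.39. The classes overlapped almost fully. The summed levels were 15.7 CPM in fast 2A (limits 13.5 to 18.1) and 14.7 CPM in fast 2X cells (limits 13.5 to 16.0), and the log2 ratio of 0.09 had counting limits of -0.15 to 0.33 that include 0. A Myl4 UMI was found in 92 of 117 fast 2X and 37 of 51 fast 2A cells. The slow cells held 19.9 and 29.2 CPM. A handful of cells stood far above the rest, and they were picked out after their values were seen. The fast 2B cell had 455 CPM (117 counts, limits 376 to 546) together with 510 CPM of Myl3, 272 CPM of Myl2, 856 CPM of Myh7b and 257 CPM of the perinatal heavy chain Myh8. The highest fast 2X cell reached 520 CPM, but from 15 counts in the shallowest kept cell of 28827 counts (limits 291 to 858). The next, on plate n710, were at 161 and 150 CPM from 20 and 6 counts. Over all cells Myl4 had a rho of -0.19 with Myh8 and -0.13 with the embryonic heavy chain Myh3. The most alike genes were Mbp (0.48), Dpp6 (0.45) and Zswim6 (0.43), values far below those of the other chains. Mbp is a myelin gene of Schwann cells, and it stood at 12.4 CPM in fast 2X and 8.48 CPM in fast 2A cells. The part of such RNA in the Myl4 values was not tested.

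Among the kept cells the summed level of both kinases was highest in the class led by Myh1. Mylk4 ranged from 0 to 788 CPM in fast 2X cells with a median of 314, and from 31.0 to 344 CPM in fast 2A cells with a median of 113. The slow cells held 49.7 and 45.9 CPM and the fast 2B cell 81.7. In all, 49 of 51 fast 2A cells were below the fast 2X median. In summed counts Mylk4 was 143 CPM in fast 2A (limits 137 to 150) and 374 CPM in fast 2X cells (limits 368 to 380), 2.61-fold lower, with a log2 ratio of -1.38 (limits -1.46 to -1.31) that ranked 51 from the lowest of 8649. Mylk2, the skeletal muscle light chain kinase, ranged from 0 to 356 CPM (median 86.3) in fast 2X and from 5.17 to 95.4 CPM (median 45.7) in fast 2A cells, and 49 of 51 fast 2A cells again lay below the fast 2X median. Its summed levels were 47.4 CPM (limits 43.6 to 51.5) and 92.6 CPM (limits 89.6 to 95.6), a log2 ratio of -0.96 (limits -1.09 to -0.84), ranked 173 from the lowest. The limits of the Mylk2 ratio include a 2-fold difference, and it crossed that size on lane 1 alone (-1.03) but not on lane 2 alone (-0.83). The slow cells held 49.7 and 41.8 CPM of Mylk2, within the fast 2A range.

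Both kinases varied with the heavy chains within the classes as well as between them. The 168 fast 2X and fast 2A cells were placed in bins of the Myh2 share of Myh1 and Myh2 counts. Summed Mylk4 was 427 CPM in 48 cells under 20%, 310 CPM in 32 cells between 20 and 30%, 306 CPM in 37 cells between 30 and 50%, 166 CPM in 35 cells between 50 and 80% and 97.8 CPM in 16 cells of 80% or more. The second and the third bin did not differ beyond their counting limits (299 to 322 and 293 to 318). Mylk2 went through 103, 90.3, 65.9, 54.9 and 32.4 CPM in the same bins. The order was also seen within each class, with a rho between Mylk4 and the Myh2 share of -0.49 within fast 2X, -0.51 within fast 2A and -0.70 over all 171 cells, and for Mylk2 of -0.50, -0.40 and -0.66. Within fast 2A cells Mylk4 also had a rho of -0.72 with the slow light chain share, where Mylk2 had -0.32. The kinases were only loosely tied to each other within a class (rho 0.22 within fast 2X and 0.18 within fast 2A). Mylk4 also moved with depth, with a rho of 0.39 against the total counts of a cell (0.45 within fast 2X), where Mylk2 had 0.17, and the median total was 330043 counts in the lowest bin of the Myh2 share and 153911 in the highest. The part of depth in the Mylk4 values was not tested.

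**Figure D5:**
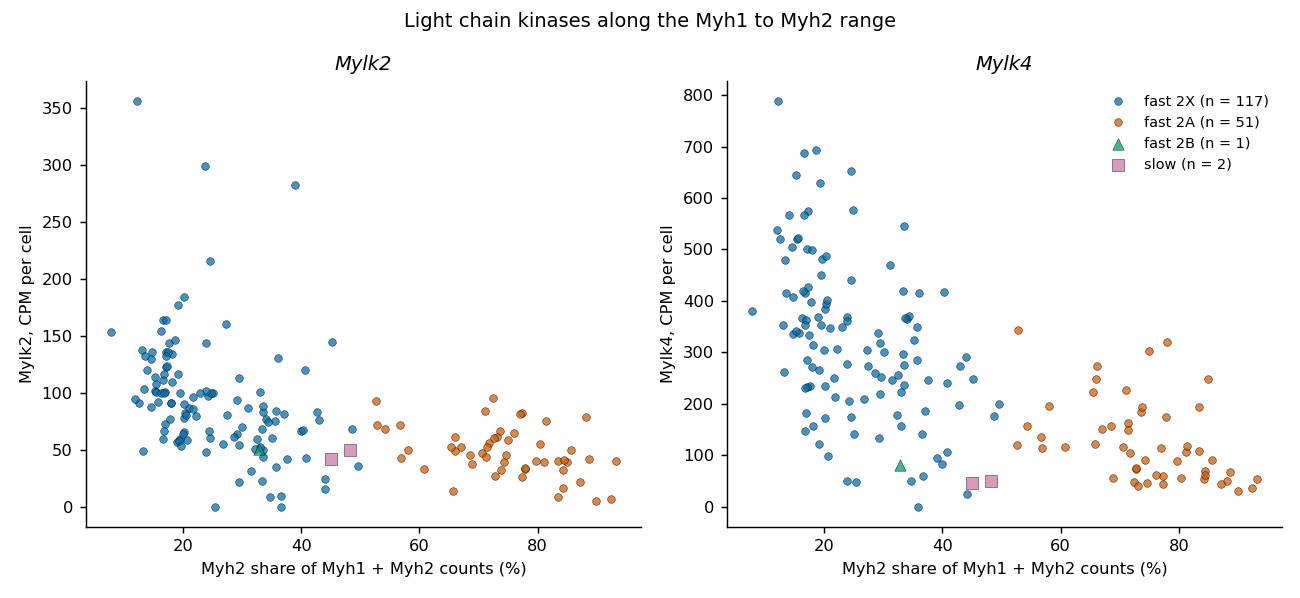
Mylk2 and Mylk4 CPM per cell against the Myh2 share of Myh1 and Myh2 counts (percent), with 1 point per cell and classes by colour. Mylk4 reaches 788 CPM at low Myh2 shares and has a median of 113 CPM in fast 2A cells, and the 2 slow cells lie below 50 CPM.

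The genes most like Mylk2 over cells were Pvalb (rho 0.72), a calcium buffer of fast fibres, Gm5524 (0.69) and Casq1 (0.69), the calcium store protein of the sarcoplasmic reticulum. Those most like Mylk4 were Jph1 (0.73) and Trdn (0.69), which hold the junction of the T-tubule and the sarcoplasmic reticulum, and Mss51 (0.69).

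Lists of other genes that act on or beside the light chains were read in the same way. Of 7 other light chain genes, 5 had at least 500 counts, of which 1 was at least 2-fold higher in fast 2A cells and none 2-fold lower, with a median log2 ratio of 0.64. That gene was Myl6b, a chain of slow muscle and non-muscle myosin, at 31.6 against 9.62 CPM (log2 ratio 1.71, limits 1.50 to 1.92). Myl12b, a non-muscle regulatory chain, had 0.65, and the ubiquitous essential chain Myl6 had 0.10. Myl9, the smooth muscle regulatory chain, was at 6.72 CPM in fast 2A and 12.0 CPM in fast 2X cells (-0.84). The smooth muscle markers Myh11 (7.73 against 18.4 CPM) and Acta2 (4.70 against 11.4 CPM) were lower in fast 2A cells too. The summed list of Myh11, Acta2, Tagln, Cnn1 and Rgs5 had medians of 21.6 and 22.6 CPM and a highest cell of 480 and 10712 CPM in fast 2A and fast 2X cells, with no marker at 0 overall. Its part in the Myl9 value was not tested.

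Among 8 other kinases that can phosphorylate light chains, 5 had at least 500 counts, none differed 2-fold in either direction, and the median log2 ratio was 0.07. The highest were Rock2 (0.17) and Dapk2 (0.16), and the lowest were the smooth muscle kinase Mylk (-0.31) and Rock1 (-0.05). The cardiac kinase Mylk3, below the count minimum with 263 counts and named after its values were seen, stood at 10.4 CPM in fast 2A against 3.55 CPM in fast 2X cells. For the myosin phosphatase, 8 of 9 genes had 500 counts, none was 2-fold higher, 1 was 2-fold lower, and the median log2 ratio was 0.00. The targeting subunit of striated muscle Ppp1r12b had 0.56 (499 against 339 CPM) and Ppp1r12a 0.20. The inhibitor genes had the lowest ratios, with -1.06 for Ppp1r14c (48.9 against 102 CPM) and -0.42 for Ppp1r14b.

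The 592 cells that the filters removed had a median of 16032 counts and 48.0% mitochondrial counts, and light chains made up 0.745% of their counts. All 7 genes had a lower CPM there than in the 171 kept cells, though the limits of Myl4 overlapped (12.8 to 16.6 against 16.2 to 18.4 CPM). The totals under these CPM include mitochondrial counts, whose median share was only 5.96% in the kept cells. A larger mitochondrial share lowers the CPM of every other gene, and its part in the lower values was not tested. Myl1 was at 2256, Mylpf at 4949, Myl2 at 159, Myl3 at 71.1, Myl4 at 14.6, Mylk2 at 34.9 and Mylk4 at 109 CPM. The slow light chain share of their summed counts was 3.10% against 2.37% in the kept cells. With at least 20 heavy chain counts required, 420 of them were led by Myh1, 66 by Myh2, 14 by Myh4 and 1 by Myh7, and 91 had too few. The slow chains and Mylk4 kept their direction between the classes, with Myl2 at 479 CPM in the fast 2A and 109 CPM in the fast 2X cells left out, Myl3 at 163 and 57.1 CPM, and Mylk4 at 68.4 and 107 CPM. The fast chains went the other way than in the kept cells. Myl1 was at 2460 CPM (limits 2392 to 2529) in the fast 2A and 2224 CPM (limits 2199 to 2250) in the fast 2X cells left out, and Mylpf at 6360 CPM (limits 6251 to 6470) and 4731 CPM (limits 4694 to 4769). The limits of Mylk2 overlapped, at 29.3 (limits 22.4 to 37.8) and 32.4 CPM (limits 29.4 to 35.6). The fast 2B cells left out, more numerous than in the kept set, had 287 CPM of Mylk4 (limits 244 to 336) and 120 CPM of Mylk2 (limits 93.0 to 154). Both were above the fast 2X cells left out, at 107 and 32.4 CPM, unlike in the kept cells. The slow light chain share of these fast 2B cells was 2.08%, unlike the 12.6% of the 1 kept fast 2B cell. On either side of the mitochondrial limit, 12 kept cells with 15 to 20% held 11141 CPM of Mylpf and 229 CPM of Mylk4, and 13 cells left out with 20 to 25% held 7740 and 174 CPM. Around the gene limit, 6 kept cells within 1000 genes above it held 9626 CPM of Mylpf, and 5 cells left out within 1000 genes below it held 11532 CPM.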

How the data were processed

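Single FDB myofibers, taken as those of 1 C57BL/6J mouse, were sequenced with mcSCRB-seq on 2 lanes. The authors mapped reads to GRCm38 with spike-in sequences and counted UMIs with zUMIs at default settings. The submitters' processing notes name STAR 2.5.4b, featureCounts and Cell Ranger 3.1.0. The deposited table holds estimated counts by name, in practice whole UMI counts per gene, below 10 description rows that were kept out of all sums. Cells with more than 5000 genes and less than 20% mitochondrial counts (27 genes) were kept, which left 28827 to 1542996 counts per cell.

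Here, the counts of all cells of a class were added and expressed as CPM of the class total, with Poisson limits. Limits of ratios are exact conditional binomial, and medians have limits from order statistics (Python 3.11.15, scipy 1.17.1, Biopython 1.88). Ratios were ranked among genes with at least 500 counts. The ratio and its limits were run on simulated Poisson sums, the model that the limits assume. That run checked the calculation only and held no spread between cells or plates. Cells are not replicates of a condition, so no p-value was computed. Limits of CPM and of ratios cover counting error only. Limits of medians cover the spread over cells, with cells taken as independent. Alternatives used edgeR 4.0.16 TMM and DESeq2 1.42.0 size factors under R 4.3.3, other filters, class rules, plates and lanes. Positions are from GENCODE annotation of GRCm38.

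Named beside the 7 genes were at most the 2 highest and 2 lowest ratios with at least 500 counts of each list of other light chains, kinases and phosphatase genes, and for each of the 7 genes the 3 genes with the highest Spearman correlation over kept cells. Markers of fibre classes and of other cell types were named as checks, whatever their counts. The genes and lists were chosen with earlier results of these data known. The table has no column of another series. Some items of these lists and a shared sequence are not reported here.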

Additional observations from a re-analysis of the deposited data

How the results depend on the processing

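No paired analysis was possible because the labels number only the lanes of 1 group, and no test was run. The classes were compared within plates and lanes instead. Over all alternatives run, the log2 ratio kept its sign for Myl1 (-0.59 to -0.39), Mylpf (-0.34 to -0.18), Myl2 (1.70 to 3.28), Myl3 (1.21 to 3.13), Mylk2 (-1.05 to -0.81) and Mylk4 (-1.50 to -1.15), and Myl4 (-0.54 to 0.33) had the same sign in 15 of 20. TMM moved all log2 ratios up by 0.11 and size factors by 0.12. The number of the 7 genes at least 2-fold higher stayed at 2. The number at least 2-fold lower was 1, was 2 where the leading heavy chain had at least 60%, and ranged from 1 to 2 with a lane left out, Mylk2 being the gene that crossed. The slow light chain share of fast 2A cells was 7.36% from summed counts in place of the 3.14% median, and ranged from 2.28 to 4.10% with a lane left out. That of fast 2X cells ranged from 0.298% without lane 1 to 0.977% without lane 2. The number of cells at or above a 10% share was 16. It was 9 at a threshold of 20%, 4 without cells of at least 5% Myh7, and ranged from 6 to 10 with a lane left out, which removes cells by construction. The number of all genes at least 2-fold higher or lower, 67 and 150 with 500 counts, was 93 and 100 with TMM, 189 and 700 with 100 counts and 3059 and 8855 with no minimum, where sampling of few counts widens ratios. With a plate left out, chosen after seeing the data, Myl2 ranged from 3.02 to 3.28 and Mylk4 from -1.46 to -1.30. Depth limits Myl4 most, with 897 counts in all kept cells.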
